A study of Oryctolagus cuniculus with 4 samples.

Results

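The enzymes that process drugs, toxins, bile acids and steroid hormones were described in rabbit blastocysts that developed without a sperm and in blastocysts of normal fertilisation. The members were the array probes whose description holds cytochrome P450, glutathione S-transferase, glucuronosyltransferase, sulfotransferase, aldehyde oxidase, aldo-keto reductase, flavin containing monooxygenase or carboxylesterase, together with the probes of AOX1, SULT1E1 and SELENBP1. They were 227 of the 43603 probes on the array and stood for 119 genes. AOX1, SULT1E1 and SELENBP1, with 7 probes, were chosen by their measured log2 ratios in the comparison made here, so their values are given without a test. The other 220 probes, of 116 genes, were found by the words of their description alone.

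Xenobiotic metabolism runs in steps. Cytochromes P450, flavin containing monooxygenases and aldehyde oxidase add or uncover a reactive group, carboxylesterases split esters, and aldo-keto reductases reduce carbonyl groups of sugars, toxins and steroids. Glutathione S-transferases, UDP-glucuronosyltransferases and cytosolic sulfotransferases then attach glutathione, glucuronic acid or sulfate, which makes the product water soluble, and the same sulfotransferases and glucuronosyltransferases inactivate oestrogens and other steroids. The Golgi sulfotransferases, found by the same word, act on sugar chains and on tyrosines of secreted proteins and not on drugs.

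All embryos were blastocysts of 6 days from New Zealand White rabbits, pooled by 7, and 4 parthenote pools were set against 4 pools of embryos fertilised in vivo. Parthenotes came from oocytes activated by electrical pulses, cycloheximide and 6-DMAP and then transferred by laparoscopy into the oviducts of recipient does, and the fertilised embryos came from inseminated does and carried no treatment. Each of the 4 arrays held a parthenote pool in Cy3 and a fertilised pool in Cy5, all on a single slide. The dyes were never swapped, so dye and group cannot be told apart, and embryos recovered from recipients were compared with embryos recovered from their own mothers. Each embryo pool is bulk RNA, in which fewer cells of a type and less RNA per cell cannot be told apart.

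Values are log2 ratios of parthenote over fertilised within an array, so that 1 is a doubling in parthenotes, and errors are standard deviations over 4 arrays. The scanning software, Agilent Feature Extraction, marks for each spot whether its signal is well above background, and a spot with no usable signal in both channels gets a ratio of 0. Of the 43803 spots of an array that are not controls, 25805 to 26339 had a parthenote signal well above background and 27508 to 27835 had such a fertilised signal. The 227 member probes filled 231 spots of each array. Of these probes, 107 (47.1%) passed this mark in both pools of every array, against 55.4% of all probes on the array. Another 81 members (35.7%) were not well above background in either channel on any array, against 30.9% of all probes. Markers of the blastocyst were present: KRT8, GATA3, GATA2 and TFAP2C of the trophectoderm, POU5F1 and DPPA5 of the epiblast and GATA4 of the primitive endoderm passed the same mark in both pools of every array.

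The probes of the chosen genes are shown because several probes of a gene carry the result only where they read different stretches of its transcript. All probes have 60 bases, written 5′ to 3′ as the array file gives them. In the AOX1 probes the capitals mark the 20 bases that all 3 share.
AOX1 A_04_P000493: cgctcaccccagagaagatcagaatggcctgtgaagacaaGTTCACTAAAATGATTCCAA
AOX1 A_04_P000492: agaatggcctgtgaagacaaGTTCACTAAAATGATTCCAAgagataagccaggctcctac
AOX1 A_04_P000491: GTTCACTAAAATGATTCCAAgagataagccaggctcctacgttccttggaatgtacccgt
SULT1E1 A_04_P072714: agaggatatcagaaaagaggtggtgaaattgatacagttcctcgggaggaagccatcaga
SULT1E1 A_04_P072713: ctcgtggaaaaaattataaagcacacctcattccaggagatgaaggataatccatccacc
SULT1E1 A_04_P072712: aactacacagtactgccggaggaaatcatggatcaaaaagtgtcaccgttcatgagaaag
SELENBP1 A_04_P048057: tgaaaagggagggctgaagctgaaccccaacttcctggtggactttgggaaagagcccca

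The AOX1 probes start at positions 4007, 4027 and 4047 of the transcript and overlap, so they are close to a single measurement. The array file places the AOX1 probe A_04_P000493 at chr7:141287578-141288396, a stretch of 819 bases for 60 bases of probe, so it reads across an exon junction. The SULT1E1 probes start at positions 599, 663 and 723 and do not overlap, with A_04_P072714 at chr15:80027778-80030205 over an exon junction, A_04_P072713 at chr15:80030210-80030269 and A_04_P072712 at chr15:80030270-80030329. The SELENBP1 probe lies at chr13:40820365-40820424. All 3 genes lie on the plus strand of a genome build that the array file does not name, and 0 of the 7 probes shared a run of 20 bases with a probe of another gene on the array.

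AOX1 encodes aldehyde oxidase, a molybdenum enzyme that oxidises aldehydes and nitrogen heterocycles. The AOX1 probe A_04_P000493 had processed signals of 218, 235, 199 and 202 in the parthenote pools of arrays 1 to 4, and of 26.5, 27.9, 28.8 and 23.1 in the fertilised pools. Every parthenote pool was above every fertilised pool. AOX1, SULT1E1 and SELENBP1 were chosen for large ratios, which favours such separation, so here and below it is not independent evidence. The log2 ratio of this AOX1 probe was 3.01 ± 0.15 (SD, n = 4), a ratio of 8.04 on the linear scale. The overlapping AOX1 probes A_04_P000492 and A_04_P000491 had 2.79 ± 0.51 and 3.18 ± 0.47, and both were highest on array 4, at 3.54 and 3.70. In the fertilised pools A_04_P000492 was well above background on 3 of the 4 arrays.

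SULT1E1 encodes oestrogen sulfotransferase, which inactivates oestrogens by adding sulfate. For the SULT1E1 probe A_04_P072712 signals were 5678, 2414, 2202 and 2589 in the parthenote pools of arrays 1 to 4, and 421, 413, 384 and 285 in the fertilised pools. The groups did not overlap, and the parthenote pool of array 1 stood far above the other parthenote pools. The log2 ratios of this SULT1E1 probe were 3.75, 2.55, 2.52 and 3.18, with a mean of 3.00 ± 0.59 (SD, n = 4). The probes A_04_P072713 and A_04_P072714, at other stretches of SULT1E1, had means of 2.70 ± 0.52 and 3.02 ± 0.56 with array 1 again the highest, at 3.33 and 3.73.

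SELENBP1 encodes selenium binding protein 1, a methanethiol oxidase that binds selenium. Its single probe, A_04_P048057, had parthenote signals of 286, 97.1, 343 and 213 and fertilised signals of 35.7, 24.1, 45.8 and 29.6. Array 2 was the lowest of both groups, yet its parthenote pool remained above every fertilised pool. The log2 ratios of SELENBP1 were 3.00, 2.01, 2.90 and 2.84, with a mean of 2.69 ± 0.46 (SD, n = 4). The size of these ratios depended on the processing: with normexp background correction, which adds an offset to every signal, followed by loess, the mean fell to 1.35 for the AOX1 probe A_04_P000493 and to 1.49 for SELENBP1, and with median centring of the arrays instead of loess to 1.22 and 1.31 and, for the SULT1E1 probe A_04_P072712, to 2.11. With normexp and median centring the AOX1 probe A_04_P000492 had the lowest mean of the 7 probes, at 0.99.

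**Figure D1:**
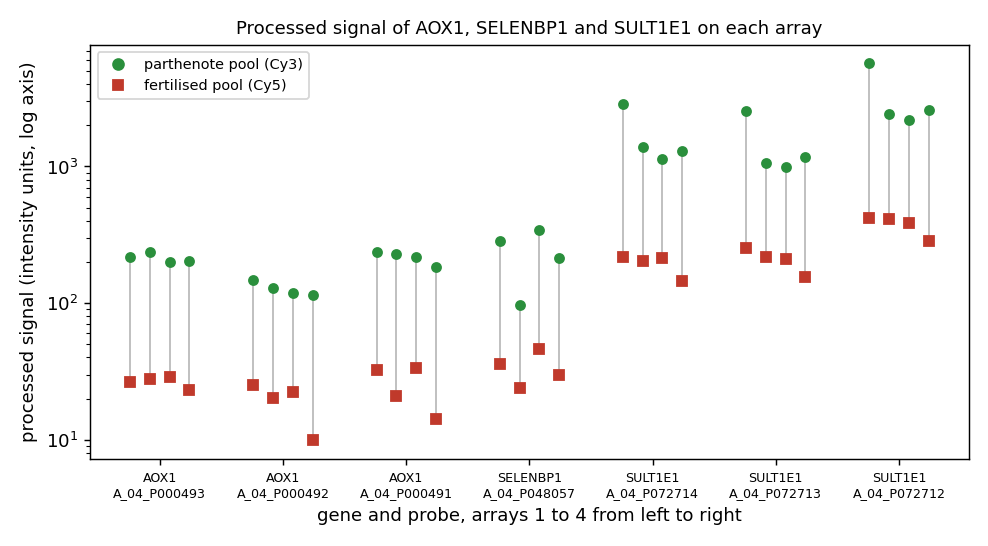
Processed signals (intensity units, log axis) of the 7 probes of AOX1, SELENBP1 and SULT1E1 on arrays 1 to 4, with circles for parthenote pools, squares for fertilised pools and a line joining the pools of an array. In each probe all 4 circles lie above all 4 squares, and within each SULT1E1 probe the circle of array 1 is the highest, 5678 for A_04_P072712. The genes were chosen for their ratios, so this separation is not independent evidence.

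Across the whole array 8996 of 43595 probes tested passed an adjusted p of 0.05 (limma, Benjamini-Hochberg), which is 20.6%, with 9.53% higher and 11.1% lower in parthenotes. Of the 220 members found by description, 53 passed (24.1%), 33 of them higher and 20 lower. Their median log2 ratio was 0.00, the same as over all probes tested, but 32 members and 6335 probes of the array had a ratio of 0 on every array. With the ratio of processed signals the medians were 0.25 for members and 0.08 for all probes. They were 0.21 and 0.0007 with normexp and median centring, 0.05 and -0.03 with dim probes filtered out, and 0.02 and -0.003 with normexp and loess. The members' share was near that of the array. The members' calls fell to 27 without array 1, 22 without array 3, 14 without array 2 and 7 without array 4. Calls over the whole array fell as well, from 8996 to 5736, 2636, 1939 and 1239 in the same order. Such a fall was therefore not particular to the members. Of all calls on the array 46.2% were higher in parthenotes, but 65.0% were with the ratio of processed signals and 68.0% with the channels fitted as separate samples. Counted by the brightest probe of each gene, 16 genes were higher, 11 were lower and 89 did not pass, beside 23.9% of all genes with a symbol on the array that passed in either direction.

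The calls are given by family, beside 20.6% of all probes that passed. Families also differed in detection. Of glutathione S-transferase probes 82.1% were well above background in both pools of every array, of P450 probes 33.3% and of UDP-glucuronosyltransferase probes 20.0%, against 55.4% of all probes. With dim probes filtered out, 42.4% of all probes and 53.8% of members passed, so counts of families are not compared with each other. Of 19 flavin containing monooxygenase probes 1 was higher and 5 were lower, with decreases called at 2 stretches. Of these decreases only that of FMO4 is described below. Glutathione S-transferases had 18 of 28 probes past the threshold, 12 higher and 6 lower. Cytochromes P450 had 24 of 87, 17 higher and 7 lower. Of the UDP-glucuronosyltransferase probes 1 of 15 passed. Of the 16 cytosolic sulfotransferase probes other than SULT1E1, 0 passed in limma, 1 had an unadjusted p under 0.05, 0 passed in the methods' t-test and 4 passed with the channels as separate samples. Among Golgi sulfotransferases 2 of 39 probes passed, among aldo-keto reductases 1 of 9 and among carboxylesterases 1 of 7. Overlapping probes of a gene raise these counts, since the 220 probes read only 150 separate stretches, with increases called at 21 of them and decreases at 13. Aldehyde oxidase, cytosolic sulfotransferases and selenium binding protein hold the genes chosen for their values, and genes that the study named from these arrays are also among the aldehyde oxidases, sulfotransferases and glutathione S-transferases, so their counts are not independent evidence.

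**Figure D2:**
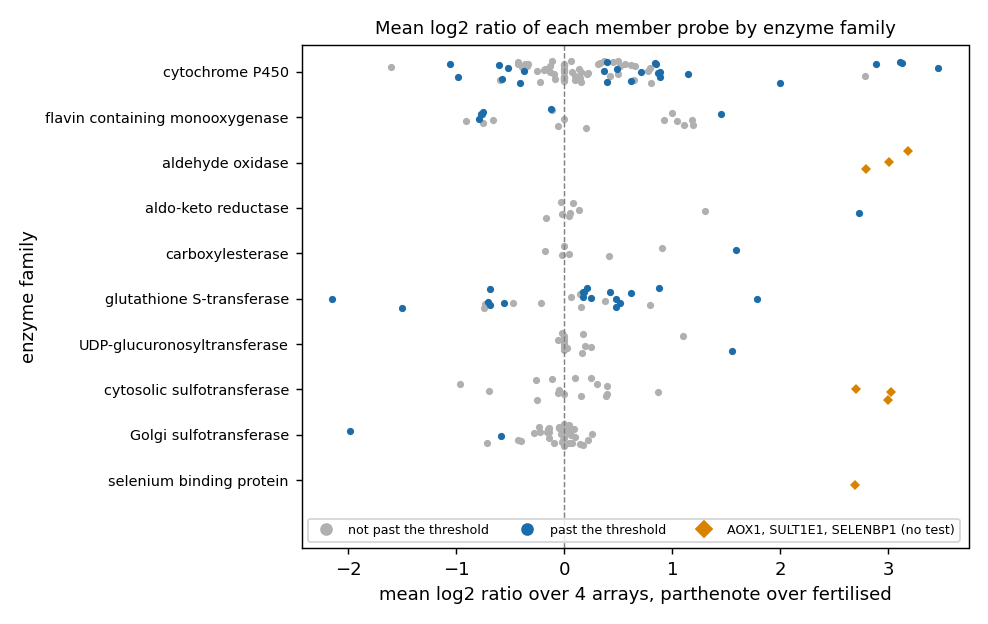
Mean log2 ratio over 4 arrays of each of the 227 member probes (x axis) by enzyme family (y axis, points spread vertically for visibility only). Most probes lie near 0, glutathione S-transferases reach both sides, and the diamonds mark AOX1, SULT1E1 and SELENBP1, which were chosen for their values and not tested.

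Among the cytochromes P450, the 2E1-like gene LOC100342572 was higher in parthenotes. Its relative CYP2E1 oxidises ethanol and small solvents. The probe A_04_P012581 had parthenote signals of 110, 77.5, 63.2 and 71.5, and fertilised signals of 5.89, 7.57, 8.28 and 7.13 that were not well above background on any array. The increase was therefore only bounded, at least 2.00-fold higher in parthenotes (adjusted p = 0.0114 in limma). Its brightest probe, A_04_P012583, overlaps it and had a mean log2 ratio of 2.88 ± 0.58 (SD, n = 4, adjusted p = 0.0151 in limma), but its fertilised signals, of 11.6, 9.09, 14.1 and 6.84, were well above background on 1 array only. Without array 4 the adjusted p in limma was 0.0717 for A_04_P012581 and 0.0830 for A_04_P012583, and without array 2 it was 0.0617 and 0.0771, while A_04_P012583 was also past 0.05 without array 1, at 0.0538. With normexp and loess A_04_P012581 had 0.92 and A_04_P012583 0.80. The array gives the name LOC100342572 also to A_04_P003872, but places it at chr18:69539281-69539340 on the minus strand and in another transcript, whereas A_04_P012581 lies at chr18:69733931-69733991 on the plus strand, so the probes may not read the same gene. A_04_P003872 passed (adjusted p = 0.00429 in limma, 0.126 with normexp and loess), but with signals from 11.0 to 12.7 against 2.81 to 3.03 it was not well above background in either channel, so no fold is given.

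The P450 2B5 probes read genes of the CYP2B subfamily, which oxidise many drugs. A_04_P031737 (LOC100328948) had log2 ratios of 0.98, 1.25, 1.09 and 1.25, with a mean of 1.14 ± 0.13 (SD, n = 4, adjusted p = 0.00793 in limma). A_04_P102837, which the RefSeq names assign to CYP2B4, had 0.80, 1.01, 0.80 and 0.84, with a mean of 0.86 ± 0.10 (adjusted p = 0.0078 in limma). All 4 arrays were higher for both, by 2.21-fold and 1.82-fold, and without array 4 their adjusted p in limma was 0.0524 and 0.0570. Their log2 means were smaller with normexp and median centring, 0.39 and 0.22. CYP2S1 was higher too, at 0.62 ± 0.20 (adjusted p = 0.0305 in limma, between 0.0539 and 0.122 with each array left out and 0.0762 with normexp and loess). CYP2A11 had 2.78 ± 1.56, with 0.89 on array 1 and 4.41 on array 4, and did not pass (adjusted p = 0.0839 in limma), and its other probe, A_04_P003741, was not well above background in either channel on any array. Members of a P450 subfamily share much of their sequence, and transcripts of close relatives may bind the same probe, so that which gene of CYP2A, CYP2B or CYP2C is read is uncertain.

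P450s that act on sterols and bile acids are given next, except for CYP7B1, whose single probe was not well above background in either channel on any array. CYP51A1, the lanosterol demethylase of cholesterol synthesis, had parthenote signals of 922, 1197, 975 and 883 at the probe A_04_P098058 and fertilised signals of 1442, 1781, 1461 and 1356. The fertilised pool was above the parthenote pool on every array. The log2 ratio of CYP51A1 was -0.61 ± 0.03 (SD, n = 4, adjusted p = 0.00429 in limma) at this probe and -0.52 ± 0.07 at the overlapping A_04_P098057 (adjusted p = 0.00945 in limma, 0.0578 without array 4, 0.0514 without array 3 and 0.0508 without array 2). The former stayed past the threshold with any array left out, up to 0.0368. The probes are shown with the 20 bases they share in capitals, and A_04_P098058 lies at chr10:36650725-36650784 of the same unnamed build.
CYP51A1 A_04_P098058: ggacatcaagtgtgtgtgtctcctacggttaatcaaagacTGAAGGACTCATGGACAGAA
CYP51A1 A_04_P098057: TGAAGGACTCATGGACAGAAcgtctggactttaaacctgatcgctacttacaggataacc

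CYP39A1, an oxysterol hydroxylase of bile acid synthesis, was higher at 3 probes that do not overlap, with mean log2 ratios of 0.40 ± 0.09 at A_04_P088609, 0.40 ± 0.09 at A_04_P088608 and 0.37 ± 0.12 at A_04_P088607 (adjusted p = 0.0196, 0.0193 and 0.0323 in limma). All 3 CYP39A1 calls were lost without array 2 (adjusted p from 0.0514 to 0.0876 in limma), array 3 (0.0645 to 0.101) or array 4 (0.0890 to 0.138), and that of A_04_P088607 also without array 1 (0.101). They were lost too with normexp and loess (log2 means from 0.12 to 0.20, adjusted p from 0.0563 to 0.131 in limma) and with normexp and median centring (0.04 to 0.14, adjusted p from 0.191 to 0.723). CYP8B1, the sterol hydroxylase that sets the share of cholic acid, had 0.89 ± 0.23 at A_04_P001822 (adjusted p = 0.0222 in limma, 0.108 without array 4, 0.0966 without array 2 and 0.0506 without array 3), and 4 of its 5 overlapping probes passed, while the brightest of them, A_04_P001821, had 0.80 ± 0.36 and did not (adjusted p = 0.0567 in limma).

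CYP7A1, the rate-limiting enzyme of bile acid synthesis, gave a divided picture. Its probe A_04_P012986 had parthenote signals between 18700 and 24280 and fertilised signals between 29920 and 35270, with a mean log2 ratio of -0.58 ± 0.23 (SD, n = 4, adjusted p = 0.0429 in limma, 0.140 without array 4, 0.140 without array 2 and 0.103 without array 1) that became -1.44 with normexp and median centring. The other 3 CYP7A1 probes, at positions 1403, 1463 and 1523 of the transcript, were not well above background in either channel on any array. Probes of the same gene thus disagreed on whether it was detected, as they did for 6 of the 28 member genes with probes at more than 1 stretch of the transcript.

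Of the CYP26 hydroxylases, which break down retinoic acid, CYP26A1 and CYP26C1 were lower. CYP26A1 had -0.43, -0.55, -0.37 and -0.29 on arrays 1 to 4, with a mean of -0.41 ± 0.11 (adjusted p = 0.0231 in limma), and CYP26C1 had a mean of -0.37 ± 0.13 (adjusted p = 0.0361 in limma). CYP26B1 had -0.13 ± 0.19 and did not pass (adjusted p = 0.405 in limma). With single arrays left out, the adjusted p in limma lay between 0.0622 and 0.0906 for CYP26A1 and between 0.0860 and 0.134 for CYP26C1. CYP26A1 had -1.07 with normexp and median centring. The probe A_04_P012596, described as cytochrome P450ka1, passed with a negative mean (adjusted p = 0.0368 in limma, and 0.140, 0.133 and 0.148 without arrays 2, 3 and 4), but it was not well above background in either channel, so no fold is given, and its sign turned with normexp and median centring.

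Of the steroidogenic P450s, a CYP21A2-like probe, A_04_P095682, of the hydroxylase that leads to cortisol and aldosterone, had 0.49 ± 0.11 (SD, n = 4, adjusted p = 0.0183 in limma, 0.0639 without array 1, 0.0829 without array 2 and 0.0606 without array 3) and turned to -0.19 with normexp and median centring. The side-chain cleavage enzyme probe A_04_P016651, of the first step of steroid synthesis, had a fertilised signal well above background on 4 arrays and a parthenote signal on 0, at least 1.21-fold lower in parthenotes, and did not pass (adjusted p = 0.0865 in limma). CYP19A1, the aromatase that makes oestrogens, had log2 ratios of -1.46, 1.30, 0.84 and 1.13 at A_04_P004847, so that array 1 went against the others (adjusted p = 0.676 in limma, 0.0485 without array 1). CYP11B2 at A_04_P004111 had -0.42 ± 0.18 (adjusted p = 0.05002 in limma, just over the threshold). CYP17A1 was not well above background in either channel.

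Among flavin containing monooxygenases, which oxidise nitrogen and sulfur atoms of drugs, FMO5 had the only increase that passed. Its probe A_04_P102732 had signals of 45.7, 44.2, 50.3 and 48.4 in parthenotes and of 18.5, 16.4, 15.7 and 18.7 in fertilised embryos. The log2 ratio of FMO5 was 1.45 ± 0.16 (SD, n = 4, adjusted p = 0.00763 in limma, 0.0544 without array 4), 2.73-fold higher. With normexp it was 0.42 after loess and 0.48 after median centring, and another FMO5 probe, A_04_P002501, had -0.11 ± 0.34 and was well above background on 1 array in each channel. FMO1 had positive means between 0.92 and 1.19 at 6 probes, with 0 of them past the threshold in limma (lowest adjusted p = 0.0702, at A_04_P002846, where arrays 1 and 2 gave 1.80 and 1.57 and arrays 3 and 4 gave 0.55 and 0.79). Of the 6 FMO1 probes, 4 had an unadjusted p under 0.05, 0 passed in the methods' t-test and 5 passed with the channels as separate samples.

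FMO4 had a small decrease of -0.13 ± 0.02 at A_04_P001571 (adjusted p = 0.0135 in limma, 0.0503, 0.0606 and 0.0720 without arrays 2, 3 and 4), a 1.09-fold difference that did not pass with normexp and loess (adjusted p = 0.298).

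**Figure D3:**
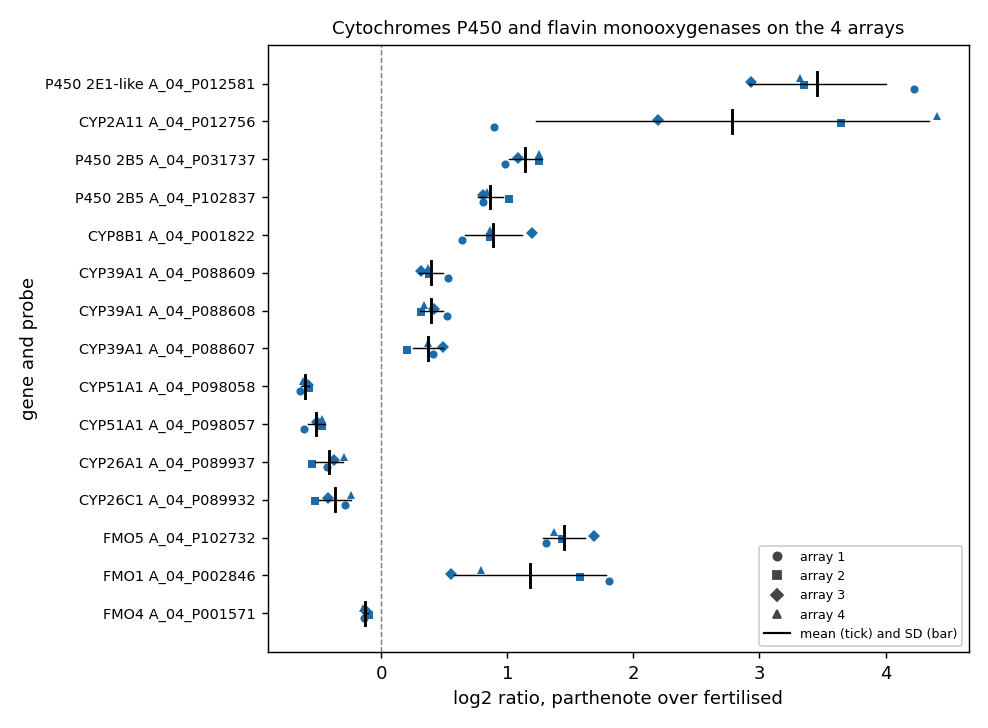
Log2 ratio of parthenote over fertilised (x axis) on each of the 4 arrays (symbols) for cytochrome P450 and flavin monooxygenase probes (y axis), with the mean as a tick and the SD as a bar. CYP51A1, CYP26A1, CYP26C1 and FMO4 lie below 0 on every array, the P450 2E1-like, 2B5, CYP8B1, CYP39A1 and FMO5 probes lie above 0 on every array, and CYP2A11 and FMO1, which did not pass the test, spread widely. The 2E1-like probe was not well above background in fertilised pools, so its position is only a bound of at least 2.00-fold.

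Glutathione S-transferases included genes that rose and genes that fell, also within a class. The alpha class protects against lipid peroxides and binds bilirubin and steroids, and its genes on the array differed in sign. GST alpha I (LOC100328910) had parthenote signals of 57.7, 60.5, 54.4 and 45.5 at A_04_P029182 and fertilised signals of 174, 162, 161 and 122. Every fertilised pool was above every parthenote pool. The log2 ratio was -1.502 ± 0.09 (SD, n = 4, adjusted p = 0.00429 in limma), 2.83-fold lower in parthenotes, and the adjusted p stayed at or below 0.0355 with any array left out. With normexp and loess the log2 ratio of this probe was -0.73. The overlapping probe A_04_P029183 had -2.15 ± 0.17 (adjusted p = 0.00536 in limma), where the parthenote channel was not well above background, so that it was at least 1.53-fold lower.

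In contrast, GST Yc (LOC100328911), also of the alpha class, had log2 ratios of 1.52, 1.13, 2.05 and 2.43 at A_04_P004623. Its mean was 1.78 ± 0.57 (SD, n = 4, adjusted p = 0.0311 in limma), 3.44-fold higher in parthenotes. A GST Yc-like gene (LOC100353681) had 0.87 ± 0.24 at A_04_P055837 (adjusted p = 0.0238 in limma), 1.83-fold higher, and like GST Yc it was lowest on arrays 1 and 2. Without single arrays the adjusted p in limma lay between 0.0728 and 0.120 for GST Yc, and for the Yc-like gene it was 0.0895, 0.0925 and 0.0983 without arrays 2, 3 and 4. With normexp and median centring the log2 means were 0.96 for GST Yc and 0.28 for the Yc-like gene.

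The probes of the alpha class are shown because they carry opposite changes of close relatives. None of them shared a run of 20 bases with a probe of another gene, and the capitals mark the 40 bases that the pair of alpha I probes shares. The genes lie between chr12:42336294 and 42635550 of the unnamed build, with alpha I and Yc on the minus strand and Yc-like on the plus strand.
GST alpha I A_04_P029183: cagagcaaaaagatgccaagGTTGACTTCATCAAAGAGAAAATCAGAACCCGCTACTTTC
GST alpha I A_04_P029182: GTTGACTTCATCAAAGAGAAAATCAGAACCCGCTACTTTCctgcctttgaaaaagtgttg
GST Yc A_04_P004623: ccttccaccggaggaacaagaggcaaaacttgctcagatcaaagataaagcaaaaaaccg
GST Yc-like A_04_P055837: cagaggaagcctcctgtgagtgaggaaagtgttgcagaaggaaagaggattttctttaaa

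GSTP1, the pi class enzyme abundant in embryos and placenta, had parthenote signals between 6625 and 8206 and fertilised signals between 10800 and 12740, with a log2 ratio of -0.68 ± 0.18 (SD, n = 4, adjusted p = 0.0225 in limma, 0.0852, 0.0952 and 0.111 without arrays 2, 3 and 4). The groups of GSTP1 did not overlap, and the mean was -1.39 with normexp and median centring. A GST mu 7-like probe, A_04_P069862, was lower, at -0.56 ± 0.18 (adjusted p = 0.0308 in limma, 0.133 without array 4, 0.119 without array 2, 0.0866 without array 1 and 0.0753 with normexp and loess). Of its 5 overlapping probes, 3 passed and all had a negative mean, between -0.74 and -0.56.

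GST omega 2 (LOC100339842), which reduces dehydroascorbate and arsenic compounds, was higher at all 5 of its probes, by 0.48 ± 0.05 at its brightest, A_04_P099725 (adjusted p = 0.0069 in limma, 0.0505 without array 4), and by 0.62 ± 0.04 at A_04_P099722 (adjusted p = 0.00462 in limma, at most 0.0402 with any array left out). GST kappa 1 (LOC100349830), a mitochondrial and peroxisomal enzyme, had 0.24 ± 0.06 at A_04_P040442 (adjusted p = 0.0184 in limma, 0.0557, 0.0831 and 0.0822 without arrays 1, 3 and 4), and GSTM2, of the mu class, had 0.18 ± 0.05 at its brightest probe, A_04_P002941 (adjusted p = 0.0234 in limma, between 0.0518 and 0.113 with each array left out), while its probe A_04_P004432, further upstream in the transcript, was not well above background in either channel. With normexp and median centring both GST omega 2 calls were lost, at 0.02 for A_04_P099725 and 0.15 for A_04_P099722 (adjusted p = 0.822 and 0.156 in limma), and GST kappa 1 turned to -0.47 and GSTM2 to -0.76. GSTCD, MGST3, GSTT4, the mu 1 probe and the theta 2 probe did not pass.

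**Figure D4:**
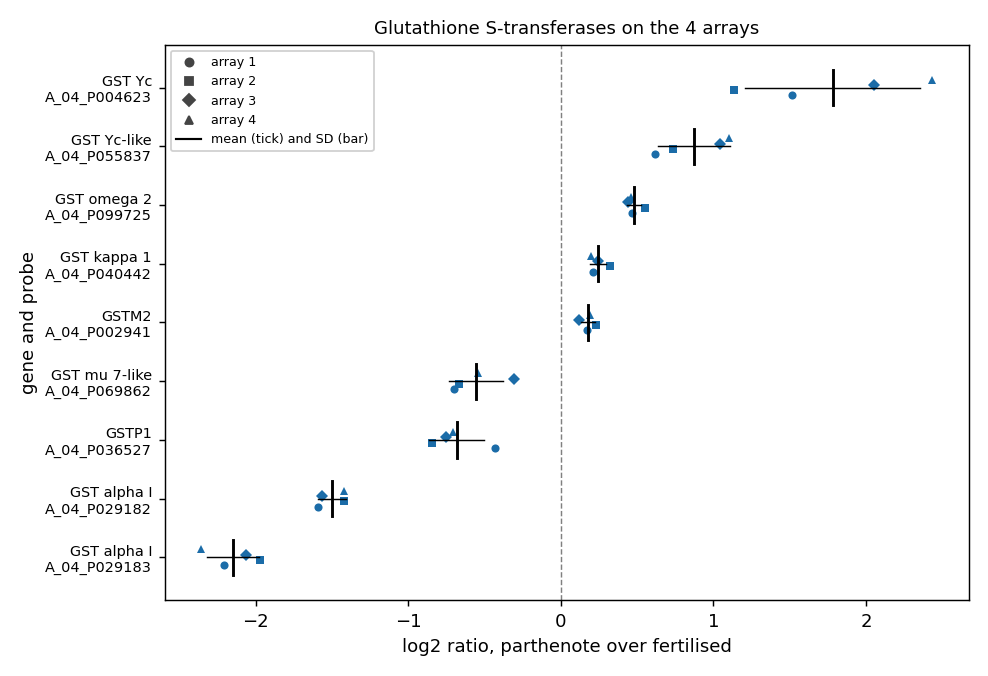
Log2 ratio of parthenote over fertilised (x axis) on each of the 4 arrays (symbols) for glutathione S-transferase probes past the threshold (y axis), with the mean as a tick and the SD as a bar. GST Yc and Yc-like lie above 0 and GST alpha I, mu 7-like and GSTP1 below 0 on every array, and the small increases of GST kappa 1 and GSTM2 turned to -0.47 and -0.76 with normexp and median centring.

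Of the UDP-glucuronosyltransferases, which link glucuronic acid to steroids, bilirubin and drugs, only the probe A_04_P049348 of LOC100359229, described as polypeptide A3 of the UGT2 family, passed in limma. Its signals were 1406, 1389, 1764 and 1469 in parthenotes and 492, 560, 544 and 454 in fertilised embryos, and the groups did not overlap. The log2 ratio was 1.55 ± 0.18 (SD, n = 4, adjusted p = 0.00809 in limma, 0.0542 without array 4), 2.94-fold higher, and 0.84 with normexp and median centring. The probe A_04_P049347 of the same gene starts 40 bases further and was not well above background in either channel on any array. The pair is shown with its 20 shared bases in capitals, with A_04_P049348 at chr15:80245828-80245887.
LOC100359229 A_04_P049348: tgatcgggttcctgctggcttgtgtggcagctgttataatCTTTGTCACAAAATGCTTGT
LOC100359229 A_04_P049347: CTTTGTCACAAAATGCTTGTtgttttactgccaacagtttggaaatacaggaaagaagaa

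Of the 15 UDP-glucuronosyltransferase probes, 10 were not well above background in either channel, among them those of UGT2B13 and UGT2B16. UGT1-6, which conjugates simple phenols, was well above background in both groups, with 0.25 ± 0.33 at A_04_P004591 and -0.02 ± 0.14 at A_04_P001456, and did not pass (adjusted p = 0.353 and 0.954 in limma).

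The other cytosolic sulfotransferases had means on both sides of 0. SULT4A1, known from brain, had -0.36, -0.65, 0.00 and -0.02 on arrays 1 to 4 at A_04_P002631 (adjusted p = 0.305 in limma). SULT2B1, which sulfates cholesterol and pregnenolone, had 0.38 ± 0.30 (adjusted p = 0.158 in limma). SULT2A1, the dehydroepiandrosterone sulfotransferase, was not well above background in parthenotes at any of its 5 probes, and its probe A_04_P002137, detected in fertilised embryos on all 4 arrays, was at least 1.05-fold lower without passing (adjusted p = 0.0735 in limma).

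Aldo-keto reductases and carboxylesterases had a call each, both at dim probes. AKR1C5, of the hydroxysteroid dehydrogenase branch, had signals of 17.6, 13.8, 40.04 and 15.7 in parthenotes at A_04_P000068, well above background on 1 array, and of 3.40, 2.89, 3.00 and 2.73 in fertilised embryos, on 0 arrays. The difference was at least 1.27-fold higher in parthenotes (adjusted p = 0.0212 in limma, 0.103, 0.0815 and 0.0645 without arrays 4, 2 and 1, and 0.0902 with normexp and loess). CES1, the main liver carboxylesterase, passed at A_04_P000923 (adjusted p = 0.00858 in limma, 0.0512 without array 2 and 0.0881 with normexp and loess), but with signals from 11.1 to 15.5 in parthenotes and from 4.23 to 5.27 in fertilised embryos it was not well above background in either channel, so no fold is given. AKR1B1, the aldose reductase, was bright in both groups, with signals from 18160 to 26990, and had 0.05 ± 0.12 (adjusted p = 0.592 in limma, with -0.78 under normexp and median centring). AKR1D1 (LOC100008612), the steroid 5-beta-reductase, had means between -0.04 and 0.08 at 3 probes and did not pass. The brightest carboxylesterase, LOC100358248, had -0.02 ± 0.42 (adjusted p = 1.0 in limma).

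The Golgi sulfotransferases act on sugar chains and proteins. Of their 39 probes of 19 genes, 2 passed, beside 20.6% of all probes on the array, and 38.5% of the 39 were well above background in neither channel, beside 30.9% of all probes. The 37 that did not pass included those of HS2ST1, HS3ST1 and NDST1 for heparan sulfate and of TPST2 for protein tyrosines, all detected in both groups. CHST4, the brightest, had -0.16 ± 0.27 (adjusted p = 0.497 in limma). CHST8, which sulfates sugars of pituitary hormones, had -0.59 ± 0.25 (adjusted p = 0.0497 in limma, between 0.0796 and 0.159 with each array left out and 0.0805 with normexp and loess), and NDST3-like LOC100350425, detected on 2 arrays in fertilised embryos and on 0 in parthenotes, was at least 1.11-fold lower (adjusted p = 0.0184 in limma, between 0.0538 and 0.0868 with each array left out), with a mean of 0.00 under normexp and median centring.

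By the positions in the array file, several members lie in gene clusters. Their counts stand beside 23.9% of all genes with a symbol on the array that passed by their brightest probe. On chromosome 15, SULT1E1 lies beside UDP-glucuronosyltransferase genes in a stretch from 80.03 to 81.13 Mb, where LOC100359229 passed and 8 genes did not. On chromosome 18, 11 genes of the CYP2C subfamily, which oxidise drugs and arachidonic acid, lie between 42.42 and 43.83 Mb, and by their brightest probe 0 of the 11 passed in limma, with 1 at an unadjusted p under 0.05, 0 in the methods' t-test and 2 with the channels as separate samples, although a dimmer CYP2C16 probe, A_04_P031743, had -0.98 ± 0.40 (adjusted p = 0.0460 in limma, 0.173 without array 4, 0.158 without array 2, 0.126 without array 1 and 0.0585 with normexp and loess). CYP26C1 and CYP26A1, neighbours at 40.83 and 40.84 Mb of that chromosome, were both lower.

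Genes that support these enzymes were followed in a list of 65, of which 47 had a named probe. By the brightest probe of each, 8 were higher, 5 were lower and 34 did not pass, beside the 23.9% of all genes with a symbol that passed on the array (11.6% higher, 12.3% lower), and the median log2 ratio of the list was 0.11. Of 7 receptors and regulators, NFE2L2, the transcription factor of the antioxidant response, had -0.37, -0.39, -0.34 and -0.33 on arrays 1 to 4 (mean -0.36 ± 0.03, adjusted p = 0.00562 in limma, at most 0.0382 with any array left out), and -1.03 with normexp and median centring. ARNT, the partner of the aryl hydrocarbon receptor AHR, had 0.36 ± 0.15 (adjusted p = 0.0478 in limma, 0.177, 0.1601 and 0.167 without arrays 4, 3 and 2) and -0.09 under normexp and median centring. AHR itself had 0.25 ± 0.88 and NR1I2, the pregnane X receptor, 0.21 ± 0.53, and neither passed or was well above background on more than 1 array.

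Among electron donors and cofactor genes, CYB5R3, the reductase of cytochrome b5, had 0.60 ± 0.06 (adjusted p = 0.00649 in limma) and FDX1, the ferredoxin that feeds electrons to mitochondrial P450s, had -0.58 ± 0.16 (adjusted p = 0.0235 in limma, 0.0707, 0.0986 and 0.105 without arrays 2, 3 and 4). CYB5R3 turned to -0.0041 and FDX1 came to -1.33 under normexp and median centring. POR, which feeds electrons to microsomal P450s, had 0.03 ± 0.07, and PAPSS1 and PAPSS2, which make the sulfate donor of SULT1E1, had 0.40 ± 0.26 and 0.00 ± 0.59, none of which passed. The molybdenum cofactor genes that serve aldehyde oxidase did not pass either, with MOCS1 at -0.05 ± 0.13 and GPHN at 0.15 ± 0.17. MOCOS was well above background on 2 arrays in parthenotes and on 0 in fertilised embryos, and did not pass (adjusted p = 0.0661 in limma). Of the glutathione synthesis genes GCLC, GCLM and GSS, 0 of 3 passed in limma, 1 had an unadjusted p under 0.05 and 0 passed in the methods' t-test or with the channels as separate samples. The one nearest the threshold, GCLM, had 0.21 ± 0.09 (adjusted p = 0.0534 in limma).

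Among the other enzymes of the list, EPHX1, the microsomal epoxide hydrolase, had signals of 500, 403, 485 and 407 in parthenotes and 203, 209, 211 and 182 in fertilised embryos, with groups that did not overlap. Its log2 ratio was 1.15 ± 0.15 (SD, n = 4, adjusted p = 0.00905 in limma, 0.0635 without array 4). NQO1, a quinone reductase, had signals of 36.0, 26.2, 43.1 and 27.5 in parthenotes and 101, 61.2, 102 and 66.8 in fertilised embryos, and its ratio was -1.31 ± 0.12 on the log2 scale (adjusted p = 0.00623 in limma, at most 0.0492 with any array left out). PON3, a lactonase, had -2.38, -1.37, -1.15 and -1.53, with a mean of -1.61 ± 0.54 (adjusted p = 0.0331 in limma, 0.137, 0.116 and 0.0914 without arrays 4, 2 and 3). With normexp and loess NQO1 had -0.50 and PON3 -0.84, and with normexp and median centring EPHX1 had 0.48.

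MAOA, the monoamine oxidase, was lower as well, at -0.52 ± 0.18 (adjusted p = 0.0351 in limma, between 0.0748 and 0.125 with each array left out). EPHX2, the soluble epoxide hydrolase (0.46 ± 0.08, adjusted p = 0.0123 in limma, 0.0712 without array 4 and 0.0529 without array 2), GUSB, which removes glucuronic acid (0.50 ± 0.04, adjusted p = 0.00562 in limma, at most 0.0381 with any array left out), and ARSA, a sulfatase (0.46 ± 0.18, adjusted p = 0.0464 in limma, between 0.0510 and 0.159 with each array left out), were higher, but turned to -0.03, -0.12 and -0.11 with normexp and median centring. XDH, the molybdenum enzyme related to aldehyde oxidase, had 0.83 ± 0.55 and did not pass (adjusted p = 0.116 in limma).

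Steroid genes of the list gave 2 calls of 6, too few to set against the 23.9% of all genes. SRD5A1, the steroid 5-alpha-reductase, had 0.52 ± 0.09 (adjusted p = 0.0128 in limma, 0.0584, 0.0638 and 0.0790 without arrays 2, 3 and 4) and HSD17B4, a peroxisomal enzyme of fatty acid and oestradiol oxidation, had 0.32 ± 0.06 (adjusted p = 0.0128 in limma, 0.0637 and 0.0577 without arrays 2 and 3), and both turned negative with normexp and median centring, to -0.03 and -0.29. STAR, the cholesterol carrier that starts steroid synthesis, had log2 ratios of -0.54, 1.05, 1.46 and 1.24, so that array 1 stood apart as it did for CYP19A1, and did not pass (adjusted p = 0.289 in limma). HSD11B2, which inactivates cortisol, had -0.90 on array 1 and between 0.04 and 0.53 on the others. The exporters ABCB1, ABCC1, ABCC3 and ABCC4 gave 0 calls of 4 in limma, also at an unadjusted p under 0.05, in the methods' t-test and with the channels as separate samples, with means between -0.10 and 0.30 (lowest adjusted p = 0.296 in limma).

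**Figure D5:**
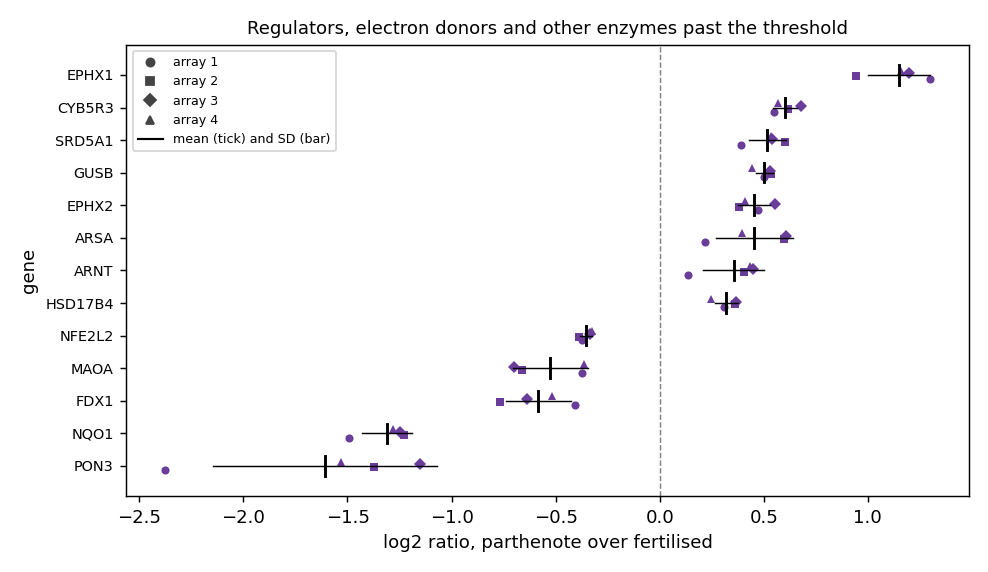
Log2 ratio of parthenote over fertilised (x axis) on each of the 4 arrays (symbols) for the 13 supporting genes past the threshold (y axis), with the mean as a tick and the SD as a bar. In the plotted ratios NQO1 and PON3 had the largest decreases and EPHX1 the largest increase of the list. With normexp and median centring FDX1 had -1.33 and NFE2L2 -1.03, against -0.61 for NQO1. ARNT, CYB5R3, EPHX2, GUSB, ARSA, HSD17B4 and SRD5A1 turned negative with that setting. It called 72.5% of all probes and also moved bright probes outside the list down, AKR1B1 from 0.05 to -0.78 and GSTM2 from 0.18 to -0.76. Such shifts are therefore not particular to the genes shown.

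Markers of other cell types were measured in the same comparison. Of 10 markers of the secretory epithelium of oviduct and uterus, 6 had a probe and 3 were higher in parthenotes, with 0 lower, beside 23.9% of all genes with a symbol that passed. ELF3 was below 0 on all 4 arrays without passing (-0.26 ± 0.13, adjusted p = 0.0659 in limma), and WFDC2 had 0.01 ± 1.04, with -1.52 on array 1. OVGP1 had 3.87 ± 0.29 (adjusted p = 0.00513 in limma), SCGB1A1 2.75 ± 0.45 (adjusted p = 0.0119 in limma, 0.0648, 0.0606 and 0.0550 without arrays 2, 3 and 4) and PGR 2.08 ± 0.63 (adjusted p = 0.0283 in limma, 0.0642, 0.114 and 0.115 without arrays 1, 2 and 4) although fertilised PGR signals were well above background on 1 array only. OVGP1 had 2.85, SCGB1A1 1.83 and PGR 0.53 with normexp and median centring, and with normexp and loess PGR did not pass (adjusted p = 0.0634). The summed signal of this list was 9115, 15420, 33290 and 19660 in the parthenote pools and 6149, 7318, 8741 and 5116 in the fertilised pools, the WFDC2 probe had the highest mean log2 signal over both groups, although OVGP1 was above it in the parthenote pools of arrays 1, 3 and 4, and ESR1 was not above background. The sums follow the brightest probes, whose signals are not levels that can be compared between genes.

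Of 12 markers of motile ciliated cells, 7 had a probe, beside 23.9% of all genes with a symbol that passed on the array (11.6% higher). SPAG17, DNAI1 and RSPH1 were higher (adjusted p = 0.0146, 0.0346 and 0.0120 in limma). These calls were lost without arrays 1, 3 or 4 for SPAG17 (up to 0.0850), whichever array was left out for DNAI1 (up to 0.134) and without arrays 2, 3 or 4 for RSPH1 (up to 0.0602). Fertilised signals were well above background on no array for SPAG17 and RSPH1, which were at least 2.55-fold and 1.35-fold higher in parthenotes, and on 1 array for DNAI1, whose parthenote signals were on 3. Their summed signal was 518, 237, 678 and 434 in parthenotes and 187, 118, 113 and 121 in fertilised embryos, the SPAG6 probe was the brightest, and FOXJ1, their master regulator, was not above background. By parthenote signal from high to low, the arrays ran 3, 1, 4, 2 for the ciliated sum and for SELENBP1, and 3, 4, 2, 1 for the secretory sum. They ran 1, 4, 2, 3 for SULT1E1 (A_04_P072712) and 2, 1, 4, 3 for AOX1 (A_04_P000493). Orders of 4 arrays decide little, and a link between them was not tested. Of the hepatocyte markers, a cell type known for many of these enzymes, 0 of 5 passed in limma, 1 had an unadjusted p under 0.05, 0 passed in the methods' t-test and 2 with the channels as separate samples. ALB was not above background in either group, the TF probe was the brightest, and the summed signal was 5531, 5958, 6781 and 5438 in parthenotes and 10190, 8340, 9896 and 6110 in fertilised embryos.

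Of the leukocyte markers, 3 of 6 were higher, beside 23.9% of all genes with a symbol that passed on the array (11.6% higher). The 3 were CD48, CD14 and CD68 (adjusted p = 0.0117, 0.0122 and 0.0434 in limma, lost without array 2 or 4, and for CD14 and CD68 also without array 3, up to 0.0716, 0.0755 and 0.161). PTPRC and CD3E were not above background. The CD14 probe was the brightest, and summed leukocyte signals were from 401 to 465 in parthenotes against 209 to 226. Of the stroma and smooth muscle markers 0 of 8 passed in limma, 2 had an unadjusted p under 0.05, 0 passed in the methods' t-test and 1 with the channels as separate samples, with COL1A1, ACTA2 and MYH11 not above background, the COL1A2 probe the brightest, and summed signals from 275 to 414 against 227 to 294. ALAS2, the only erythroid marker with a probe, had 1.94 ± 0.46 (adjusted p = 0.0196 in limma, 0.0714, 0.0714 and 0.102 without arrays 2, 3 and 4), with signals from 160 to 230 against 38.6 to 75.1. With normexp and median centring CD48 had 0.68, CD14 0.29 and ALAS2 0.84, and CD68 was lost, at 0.09 (adjusted p = 0.378). The part of these cell types in the values of AOX1, SULT1E1, SELENBP1 and the other enzymes was not tested.

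Of the blastocyst's own markers, KRT8 and POU5F1 were higher by 0.58 ± 0.22 and 0.21 ± 0.03 (adjusted p = 0.0408 and 0.0118 in limma, lost without array 2, 3 or 4, up to 0.149 and 0.0746), but had -0.21 and -0.52 under normexp and median centring, and GATA2 was lower, at -0.64 ± 0.26 (adjusted p = 0.0451 in limma, lost whichever array was left out, up to 0.171). GATA4 did not pass. The summed signal of the trophectoderm list was 21570, 30190, 29430 and 24070 in parthenotes and 18210, 19520, 18280 and 17650 in fertilised embryos, and that of the epiblast list was 14160, 11700, 12340 and 11430 against 11050, 10210, 10940 and 9865.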

How the data were processed

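RNA of 4 parthenote and 4 fertilised pools was measured on 4 two-colour arrays. The authors deposited for each spot the mean and local background intensity, the processed intensity of each channel, corrected for background and dye, and their log10 ratio (Cy5 over Cy3), made with Agilent Feature Extraction 10.10.1.1 (submitters' processing notes). The authors' series-wide value table holds that log10 ratio, turned to the opposite sign. Here ratios were converted to log2 of parthenote over fertilised, control spots and the 26 to 48 marked spots per array were left out, spots of a probe were averaged, and 43595 probes with at least 3 values entered a two-sided moderated test (limma 3.58.1, lmFit and eBayes, under R 4.3.3), adjusted by Benjamini-Hochberg over all probes. A single gene tested alone on 4 arrays could not go below an exact p of 0.125. The ratio pairs the pools of an array: deviations from the group means correlated by 0.601, 0.633, 0.619 and 0.651 within arrays 1 to 4, against -0.225, -0.206, -0.207 and -0.194 between arrays. Deviations from a mean of only 4 arrays sum to 0, so the negative values between arrays follow from the positive ones within and add nothing. The values within arrays do not show whether the pools or the shared array gave them.

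Names came from RefSeq accessions (160 member probes), gene identifiers (50) or symbols (2), matched to the RefSeq table of mOryCun1.1 for names only, and 15 probes had no symbol. The members and gene lists were chosen with earlier results of these data known. Genes were named by rule: per family, by the brightest probe of each gene, the 3 largest increases and 3 largest decreases past the threshold with 1 sign on all arrays, and the brightest gene, and from the supporting list the 3 largest each way. Other genes and probes were chosen after their values were seen. Where a group was below background, the bound set the other group's mean against each array's dimmest signal still well above background, from loess- and Aquantile-normalised channels, and is open to dye bias. The test was also tried on simulated data, from which no result is given here. Alternatives were normexp (offset 50) with loess, also with repaired local backgrounds, or with median centring, the ratio of processed intensities, the value table, a filter on dim probes, marked spots kept, the methods' t-test, separate channels, trend and robust estimation, each array left out, genes in place of probes and the mean of a gene's probes. Promoter sequences were not used here, and 1 gene that the rule named is not reported here. Python 3.11.15, numpy 2.4.6, pandas 2.3.3 and matplotlib 3.10.9 made tables and plots.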

Additional observations from a re-analysis of the deposited data

Results flagged for a closer look

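In 5 of 70 sets of 4 arrays, 1 array lay so far from the others that its gap to them, over the whole range, passed the 95% critical value of Dixon's test, where chance gives about 1 in 20. Probes chosen by their ratios, and those below background in both channels on every array, were not put to this test. CYP19A1 (A_04_P004847) was at -1.46 on array 1, against 0.84 to 1.30. CYP7A1 (A_04_P012986) was at -0.92 on array 3, against -0.50 to -0.45. CYP2B4 (A_04_P102837) was at 1.01 on array 2, against 0.80 to 0.84. The carboxylesterase 5-like gene LOC100358248 was at 0.61 on array 3, against -0.27 to -0.20. ARNT was at 0.14 on array 1, against 0.40 to 0.45.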

How the results depend on the processing

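The counts of members called depend on the processing. Normexp with median centring gave 109 higher and 61 lower of 220, with 31610 probes called over the array. The ratio of processed signals gave 87 higher and 21399 over the array, 65.0% of these higher in place of 46.2%. Without pairing the pools of an array (separate channels, no replicate block) there were 69 higher, 27 lower and 16358 over the array, 68.0% higher. The methods' t-test gave 19 higher, 8 lower and 4435 over the array. Genes in place of probes gave 16 higher and 11 lower. Leaving out each array in turn gave 4 to 17 higher, 3 to 10 lower and 1239 to 5736 over the array, lowest without array 4, where 13 of 62 named probes that had passed still did. Of these 62, 10 passed whichever array was left out. Of the 62 named calls, the methods' t-test ended 20, normexp with median centring 16 (10 of these also turned, and 4 more turned and stayed past the threshold), normexp with loess 17, trend and robust estimation 8, separate channels 6, repaired backgrounds 3, and the ratio of processed signals and the dim-probe filter 1 each. The ratio moved by over 1.5-fold for 39 of them with median centring, 20 with loess and 18 with repaired backgrounds.

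Normexp with median centring turned 18 named means, to -0.78 for AKR1B1, -0.76 for GSTM2, -0.47 for LOC100349830 and -0.52 for POU5F1, to -0.29 for HSD17B4, -0.21 for KRT8, -0.19 for the CYP21A2-like probe A_04_P095682, -0.12 for GUSB, -0.11 for ARSA and -0.0893 for ARNT, to -0.0316 for SRD5A1, -0.026 for EPHX2 and -0.0041 for CYB5R3, and upward to 0.19 for CYP17A1, 0.14 for the P450ka1 probe A_04_P012596, which like CYP17A1 was below background in both channels, 0.061 for SULT2A1, 0.0275 for LOC100358248 and 0.0046 for LOC100350425. LOC100358248 and AKR1B1, near 0 and not called, also turned under others: LOC100358248 to 0.0418 with normexp and loess and 0.0339 with repaired backgrounds, and between -0.2358 and 0.0583 with single arrays left out, positive without arrays 1, 2 and 4, and AKR1B1 between -0.0032 and 0.0887, negative without array 1. The cause was not tested. The value table is the same ratio, so its equality says nothing. Signal over background limits 81 member probes that were below background in both groups.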
